A study of Mus musculus with 15 samples.

Results

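Colons of mice at day 100 of a colitis-associated cancer protocol, given saline as the placebo, were compared with colons at day 27 of the same protocol, across all genes of the count table. The comparison uses 6 of the 15 libraries of the series, 3 labelled saline D100 and 3 labelled saline D27, chosen by their labels. All mice were male C57BL/6J, given as 6 to 10 weeks old. Azoxymethane (AOM), a carcinogen of the colon, was injected at 10 mg/kg into the abdomen on day 0. Dextran sulfate sodium (DSS), a polymer toxic to the colon lining, was drunk at 2.5% on days 7 to 11, 28 to 32 and 49 to 53. The saline D100 colons thus followed all 3 DSS periods and the saline D27 colons only the first, and saline was injected on the DSS days. The titles name the saline D100 group as cycle 2 and name no cycle for saline D27. Saline D48 follows the second DSS period and is titled cycle 1. APX3330 is the drug group (25 mg/kg on the DSS days, no day given), and Control is labelled as wild type only, although the shared protocol gives AOM to every mouse. Day, age and number of DSS periods change together between saline D100 and saline D27, and their parts cannot be told apart. The labels do not say whether a colon sample held tumour, nor whether each library is its own animal, so the p-values measure library-to-library spread, which may be technical.

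In this model DSS strips the colonic epithelium, which is rebuilt from crypt stem cells while AOM-mutated cells can grow into tumours over the following cycles. The colon wall read in bulk RNA holds absorptive colonocytes and mucus-secreting goblet cells, the muscle coat, fibroblasts, nerve cells and immune cells. Heat shock proteins, which recur below, are chaperones that fold and refold proteins, mostly in the cytosol. Their genes are switched on by the transcription factor HSF1, which binds repeats of GAA and its complement TTC in their promoters.

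The 6 libraries held 13845917 to 15830242 counts in saline D100 and 14787313 to 17919613 in saline D27, and 18038 genes passed the filter on low counts. As a check of the tissue label, the goblet cell genes Clca1, Fcgbp and Muc2 were among the 5 genes with the most counts, beside mt-Co1 and the pentraxin gene Mptx1. Some libraries stood apart. Summed over 16 genes of squamous epithelium, saline D100 replicate 1 held 998 CPM (counts scaled to a common library size), against 6.92 and 7.15 CPM in the other saline D100 libraries and 8.50 to 10.5 CPM in saline D27. Of the 15 genes of that list that were tested 0 were called in edgeR, and 10 had an unadjusted p below 0.05. Of the libraries used for values at day 48, saline D48 replicates 2 and 3 held 55001 and 13715 CPM over 18 genes of exocrine pancreas, against 448 CPM in replicate 1, 234 to 309 CPM in saline D100 and 326 to 445 CPM in saline D27, and saline D48 replicate 3 held 1595 CPM over the B cell list. The libraries also differed along base composition. In the quintile of genes with the lowest GC content the median deviation from the mean of the 6 libraries was 0.10, 0.07 and 0.10 (log2) in the saline D100 libraries and -0.11, -0.19 and 0.03 in the saline D27 libraries, and in the highest quintile it was -0.07, -0.09 and -0.09 in saline D100 and 0.10, 0.18 and -0.04 in saline D27. Saline D27 replicate 3 thus ran with the saline D100 libraries on this axis, and saline D27 replicates 1 and 2 ran the other way.

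Of the 18038 genes, 294 were called higher in saline D100 (1.63%) and 262 lower (1.45%) at an adjusted p below 0.05 in edgeR's quasi-likelihood test, with Benjamini-Hochberg adjustment over all genes tested. Unadjusted p was below 0.05 for 3699 genes. The changes were mostly small: the median log2 fold change of the called genes was 0.50 among the higher and -0.65 among the lower, and 31 and 54 of them passed 2-fold. The 3 and 3 libraries did not overlap in 25.9% of the genes tested. Genes called higher had a median GC content of 43.3% in their longest transcript and a median length of 4107 bases, against 56.4% and 2269 bases in genes called lower and 49.98% and 2842 bases over all genes tested. With offsets for GC content and length in each library, 75 genes were called higher and 70 lower, 58 and 58 of them among the first calls, and all 556 first calls had the same direction. The part of base composition in the other calls was not tested further, and counts or values with these offsets are given for most groups of genes below.

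The calls also rested on single libraries. Without saline D100 replicate 1, 2 or 3 there were 119, 88 or 14 genes called higher and 110, 70 or 17 lower. Without saline D27 replicate 1, 2 or 3 there were 17, 36 or 514 genes called higher and 20, 53 or 274 lower. With saline D27 replicates 1 and 2 both left out, edgeR called 0 genes in either direction, 1624 had an unadjusted p below 0.05, and all 556 genes again had the same direction. That fit has 1 saline D27 library, assumed to vary like the other groups.

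**Figure D1:**
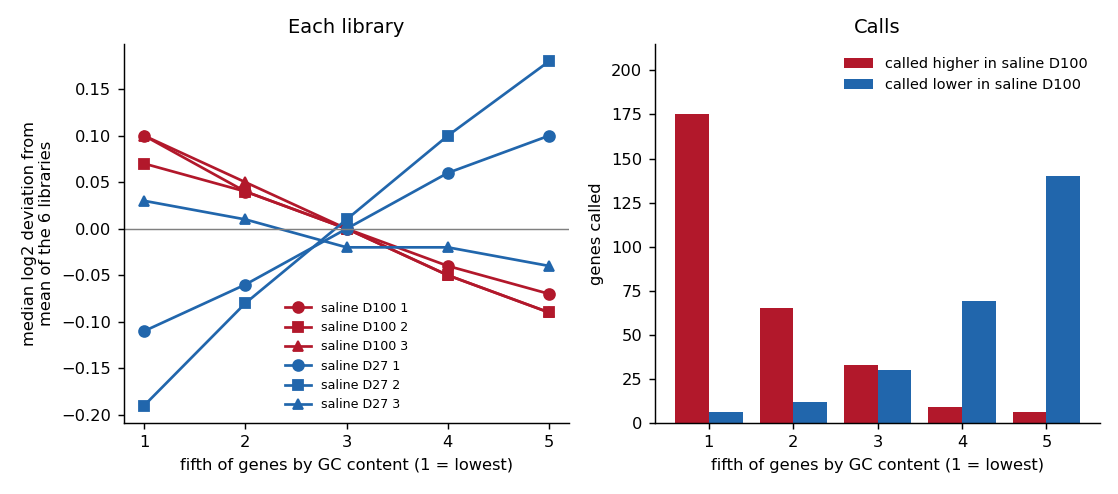
Left, median deviation (log2) of each library from the mean of the 6 libraries in quintiles of genes by GC content, saline D100 in red and saline D27 in blue, with a marker shape for each replicate. Right, number of genes called higher (red) and lower (blue) in saline D100 in the same quintiles: 175 of the genes called higher lay in the lowest quintile and 140 of those called lower in the highest, and saline D27 replicate 3 (blue triangles) ran with the saline D100 libraries.

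Heat shock genes formed the group with the most calls. The list holds 22 genes, all tested: chaperones, most of them cytosolic, their partners and Hsf1. Of these, 10 rose in saline D100 (45.5%, against 1.63% of all genes) and 0 fell. The list's median log2 fold change was 0.49, against -0.01 over all genes. The 10 were Hspa1a, Hspa1b, Hsph1, Hsp90aa1, Dnaja1, Dnajb1, Hspa4l, Bag3, Chordc1 and Cacybp. With GC and length offsets 8 of the 10 were still called, all but Hsp90aa1 and Hspa4l. Upstream sequences of 4 of them are shown because they hold the letters of the HSF1 repeat near the start of the gene. Each is the RefSeq window (GRCm38.p6) of 250 bases before to 50 bases after a transcription start, 5′ to 3′ on the strand of the gene, with matches to TTCNNGAA or GAANNTTC in capitals, where overlapping matches make 1 run. For Hsph1 and Dnaja1, with 2 and 3 windows in RefSeq, the one with the most matches is shown. The windows are chr17:34972107-34972406 (minus strand) for Hspa1a, chr5:149636287-149636586 (minus) for Hsph1, chr4:40722218-40722517 (plus) for Dnaja1 and chr9:18292017-18292316 (plus) for Chordc1.
Hspa1a: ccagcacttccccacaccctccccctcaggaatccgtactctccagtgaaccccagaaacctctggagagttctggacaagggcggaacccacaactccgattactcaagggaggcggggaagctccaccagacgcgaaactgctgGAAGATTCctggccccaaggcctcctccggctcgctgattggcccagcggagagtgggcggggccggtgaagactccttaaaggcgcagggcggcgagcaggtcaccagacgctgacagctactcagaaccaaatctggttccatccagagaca
Hsph1: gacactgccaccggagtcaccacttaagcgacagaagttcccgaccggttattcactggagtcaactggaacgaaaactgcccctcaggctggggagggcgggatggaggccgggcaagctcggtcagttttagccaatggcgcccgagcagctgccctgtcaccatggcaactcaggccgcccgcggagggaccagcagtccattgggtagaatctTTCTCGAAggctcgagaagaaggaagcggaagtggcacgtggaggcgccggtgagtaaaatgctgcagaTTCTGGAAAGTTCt
Dnaja1: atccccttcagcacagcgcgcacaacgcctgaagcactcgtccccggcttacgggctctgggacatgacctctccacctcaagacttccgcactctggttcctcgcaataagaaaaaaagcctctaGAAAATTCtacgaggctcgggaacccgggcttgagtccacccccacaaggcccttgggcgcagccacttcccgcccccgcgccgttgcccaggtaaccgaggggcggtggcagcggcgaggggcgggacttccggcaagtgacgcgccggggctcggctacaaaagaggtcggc
Chordc1: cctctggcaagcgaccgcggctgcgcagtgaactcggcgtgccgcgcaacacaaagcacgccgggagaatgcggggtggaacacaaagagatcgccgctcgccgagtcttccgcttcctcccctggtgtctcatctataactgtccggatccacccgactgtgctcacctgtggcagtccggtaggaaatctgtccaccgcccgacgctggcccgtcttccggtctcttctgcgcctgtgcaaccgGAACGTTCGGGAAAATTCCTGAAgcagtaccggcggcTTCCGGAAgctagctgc
The window of Hspa1b differs from that of Hspa1a at 4 of 300 bases and holds the same single match. Hsph1 has 3 matches and Chordc1 5, several of them overlapping. Either repeat was present in the windows of 14.1% of the 12534 tested genes with a RefSeq window (a gene with several windows counted once). Among the heat shock genes it was present in 6 of the 9 called with a window (66.7%) and in 5 of the 8 not called (62.5%). A match is a run of letters and says nothing of binding.

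Hspa1b and Hspa1a, which encode the stress-inducible Hsp70, had the largest rises of the comparison among the genes named by its rule. Hspa1b stood at 379, 397 and 422 CPM in saline D100, against 51.6, 101 and 71.1 CPM in saline D27 (log2 fold change 2.42 ± 0.42 SE, adjusted p = 0.0115). The lowest saline D100 library was over every saline D27 library. The naming rule required groups without overlap, so this gap is a description only. Hspa1a stood at 73.1, 78.6 and 95.3 CPM in saline D100, against 11.3, 21.6 and 13.02 CPM in saline D27 (2.43 ± 0.424, adjusted p = 0.0115). Both genes lie on chromosome 17 and are near-identical, and reads may be split between them. The folds of Hspa1b and Hspa1a with GC and length offsets were 2.62 and 2.65 on the log2 scale, larger than without, and the GC content of their transcripts was 58.1% and 58.95%.

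Partners of Hsp70 rose with it. Hsph1, the Hsp110 chaperone that reloads Hsp70 with ATP, stood at 284, 283 and 311 CPM in saline D100, against 61.7, 112 and 84.5 CPM in saline D27 (1.77 ± 0.33, adjusted p = 0.0156). Dnaja1, a J-domain protein that hands clients to Hsp70, stood at 276, 241 and 283 CPM in saline D100, against 84.6, 105 and 113 CPM in saline D27 (1.40 ± 0.19, adjusted p = 0.00385). Both genes were named by the rule that required separate groups, so the gap between their groups is a description only. Dnajb1, another J-domain protein, stood at 132, 173 and 162 CPM in saline D100, against 67.5, 94.2 and 64.8 CPM in saline D27 (1.05 ± 0.204, adjusted p = 0.0178). Bag3, a co-chaperone that binds Hsp70, averaged 133 ± 9.23 CPM in saline D100 and 82.5 ± 13.1 CPM in saline D27 (SD, n = 3 each; log2 fold change 0.69, adjusted p = 0.0425), and Hspa4l, of the Hsp110 family, 93.0 ± 10.8 and 60.7 ± 1.76 CPM (0.62, adjusted p = 0.0203).

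Hsp90 and its partners were called in part. Chordc1, an Hsp90-binding protein, stood at 104, 95.1 and 100 CPM in saline D100, against 33.9, 39.6 and 47.2 CPM in saline D27 (1.31 ± 0.172, adjusted p = 0.00309). Hsp90aa1, the inducible Hsp90, stood at 522, 447 and 505 CPM in saline D100, against 200, 324 and 299 CPM in saline D27 (0.84 ± 0.212, adjusted p = 0.0434), with no overlap. Hsp90ab1, the constitutive form, had a log2 fold change of 0.39 (adjusted p = 0.084), and Cacybp rose by 0.76 (adjusted p = 0.0115). Ahsa2, related to an activator of Hsp90 and outside the list (chosen after its values were seen), stood at 22.3, 34.3 and 34.9 CPM in saline D100, against 12.3, 13.98 and 12.3 CPM in saline D27 (1.24 ± 0.204, adjusted p = 0.0092).

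The other 12 members were not called. Hspa8, the constitutive Hsp70, had 1883, 1511 and 1628 CPM in saline D100 and 962, 1404 and 1124 CPM in saline D27 (0.53 ± 0.173, adjusted p = 0.106), so its groups did not overlap but missed the threshold. Hsf1 itself had a log2 fold change of -0.02 ± 0.106 (95% interval -0.24 to 0.21, adjusted p = 0.945). The small heat shock genes Hspb1 and Cryab were at 0.10 and -0.65 on the log2 scale (adjusted p = 0.828 and 0.086), and the mitochondrial chaperones Hspd1 and Hspe1 at 0.44 and 0.21 (0.086 and 0.589).

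Of the 10 calls, 7, 6 and 2 held without saline D100 replicate 1, 2 and 3, and 2, 7 and 8 held without saline D27 replicate 1, 2 and 3. Dnaja1 and Chordc1 were called in all 6 of these fits. Over them Hspa1b lost its call without saline D100 replicate 3 (log2 fold change 2.38, adjusted p = 0.0554) and without saline D27 replicate 1 (2.21, adjusted p = 0.07). With saline D27 replicate 3 as the only saline D27 library, 0 of the 10 were called and the log2 folds of Hspa1b, Hsph1, Dnaja1 and Chordc1 were 2.49, 1.79, 1.24 and 1.08.

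**Figure D2:**
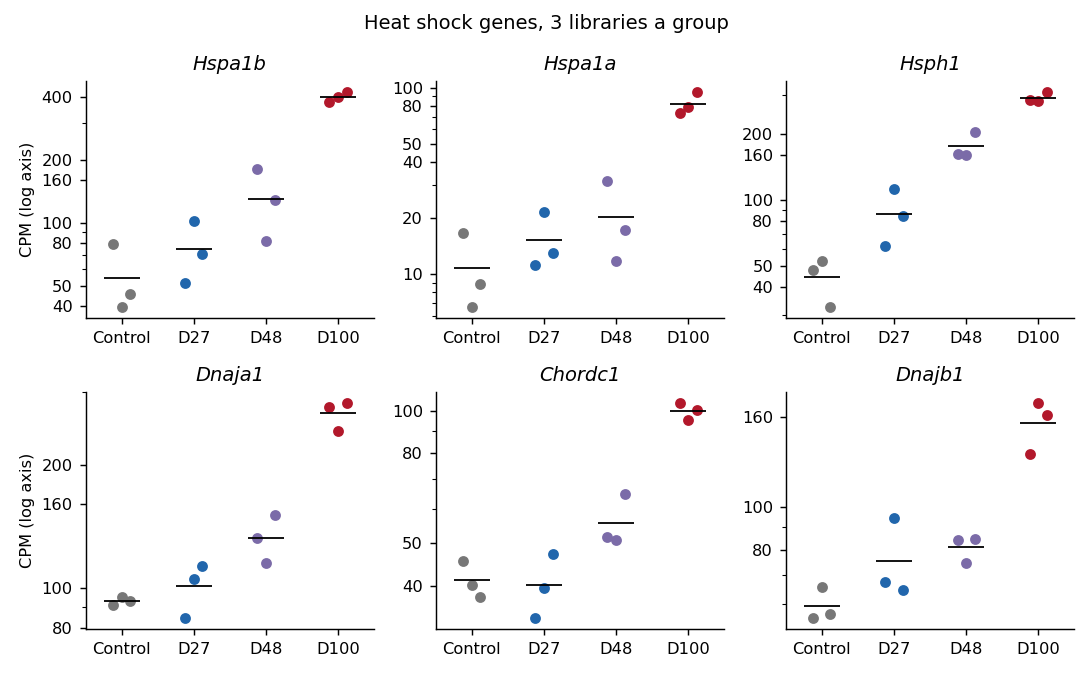
CPM (log axis) of 6 heat shock genes in Control (grey), saline D27 (blue), saline D48 (purple) and saline D100 (red); each point is 1 library and each line the mean of 3. In all 6 panels the 3 saline D100 libraries lie above every other library shown. All but Dnajb1 were named by a rule that required this against saline D27.

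Hsph1 was at 61.7 to 112 CPM in saline D27, 161 to 205 CPM in saline D48 and 283 to 311 CPM in saline D100, and Chordc1 was at 33.9 to 47.2, 51.0 to 64.6 and 95.1 to 104 CPM in the same order. Against saline D48, 1298 genes were called higher in saline D100 (7.2%) and 1155 lower (6.4%), and 8 of the 22 heat shock genes were called higher. Without saline D48 replicates 2 and 3, the libraries with pancreatic transcripts, 230 genes were called higher and 269 lower, 3 of the heat shock genes among the higher; that fit has 1 saline D48 library, assumed to vary like the other groups. This contrast shares the saline D100 libraries with the main one. Hspa1a was 2.02 higher in saline D100 than in saline D48 on the log2 scale (adjusted p = 0.00589) and Hspa1b 1.61 (adjusted p = 0.0169), and Hsph1, at 0.73, was not called (adjusted p = 0.142). Hspa1b was not called without saline D48 replicate 2 (1.36, adjusted p = 0.0634) or 3 (1.60, adjusted p = 0.0535), and without both neither Hspa1a (1.37, adjusted p = 0.186) nor Hspa1b (1.14, adjusted p = 0.307) was called. In the APX3330 group Hspa1b was at 47.6, 200 and 122 CPM and in Control at 79.1, 39.4 and 45.6 CPM, all under the saline D100 libraries.

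Chaperones of the endoplasmic reticulum gave fewer calls. Of 23 genes of the unfolded protein response 2 rose (8.70%, against 1.63% of all genes) and 0 fell, with a median log2 fold change of 0.25. Dnajb9, a J-domain protein of the endoplasmic reticulum, stood at 75.2, 67.4 and 80.7 CPM in saline D100, against 40.9, 42.7 and 37.0 CPM in saline D27 (0.89 ± 0.154, adjusted p = 0.0115), and Herpud1, which serves degradation of misfolded proteins there, averaged 278 ± 31.2 CPM and 171 ± 28.1 CPM (SD, n = 3 each; 0.70 ± 0.179, adjusted p = 0.045). Neither pair of groups overlapped. Hspa5, the Hsp70 of this compartment, had a log2 fold change of 0.36 ± 0.219 (adjusted p = 0.373). Dnajb9 was not called with GC and length offsets (0.66, adjusted p = 0.0864) and was lost without saline D100 replicate 3 (adjusted p = 0.0656) or saline D27 replicate 1 (0.0601). Herpud1 was lost in each of the 6 fits without 1 library (adjusted p = 0.0747 to 0.135).

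**Figure D3:**
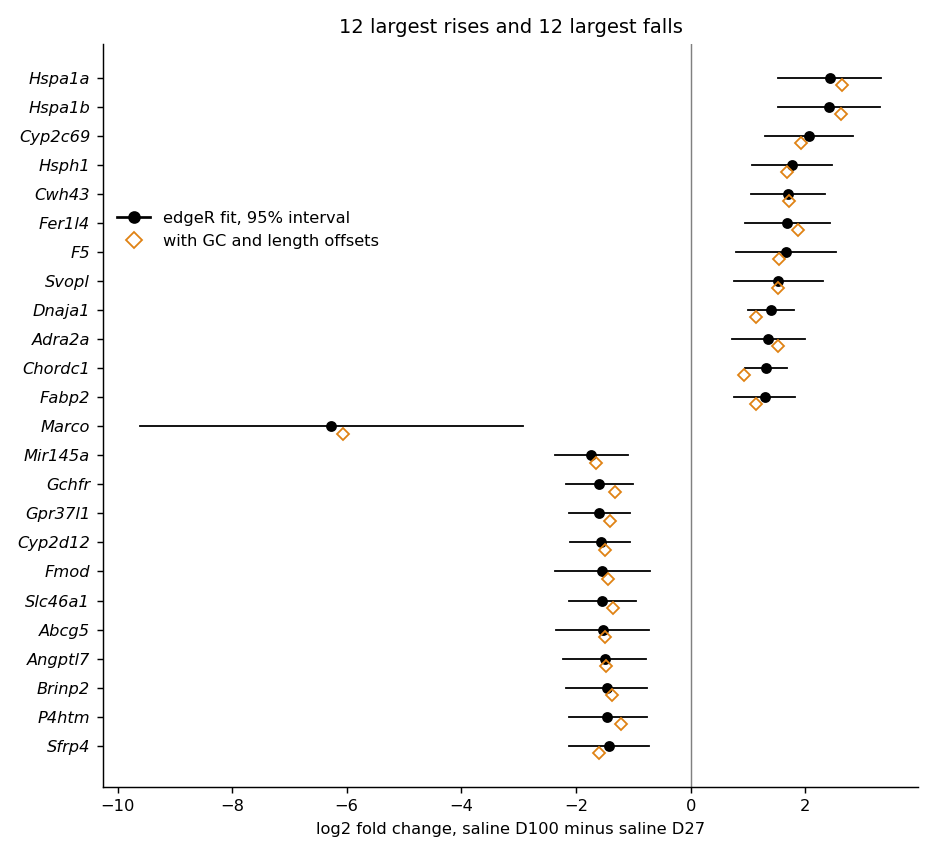
Log2 fold change (saline D100 minus saline D27) of the 12 largest rises and 12 largest falls, as points with 95% intervals from the edgeR fit, and the same with GC and length offsets as open diamonds. Hspa1a and Hspa1b stand at the top at 2.43 and 2.42, and the interval of Marco, which rests on few counts, runs from -9.61 to -2.93.

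The 12 largest rises among genes of at least 2 CPM with no overlap were Hspa1a, Hspa1b, Cyp2c69, Hsph1, Cwh43, Fer1l4, F5, Svopl, Dnaja1, Adra2a, Chordc1 and Fabp2. Cyp2c69, a cytochrome P450, was low throughout, at 5.30, 4.62 and 4.37 CPM in saline D100, against 1.62, 0.689 and 1.05 CPM in saline D27 (2.07 ± 0.362, adjusted p = 0.0115). Cwh43, whose yeast counterpart remodels the lipid of membrane anchors, stood at 19.6, 22.6 and 13.6 CPM in saline D100, against 5.30, 6.61 and 5.27 CPM in saline D27 (1.70 ± 0.302, adjusted p = 0.0123). Fer1l4 stood at 22.6, 16.6 and 19.7 CPM in saline D100, against 7.14, 7.85 and 3.23 CPM in saline D27 (1.69 ± 0.348, adjusted p = 0.0226). Separate groups were required of the genes named by this rule, so the gaps in these 3 are a description only. The gap was narrow in Adra2a, the alpha-2A adrenergic receptor, whose saline D100 libraries spread from 7.98 to 22.5 CPM, the lowest just over the 5.78 to 6.52 CPM of saline D27 (1.36 ± 0.30, adjusted p = 0.0282). F5, which encodes coagulation factor V, averaged 3.17 ± 0.337 CPM in saline D100 and 0.988 ± 0.323 CPM in saline D27 (1.66, adjusted p = 0.0382), and Svopl 3.02 ± 0.835 and 1.04 ± 0.473 CPM (1.53, adjusted p = 0.0364). F5, Svopl and Fabp2 were not called with GC and length offsets. Of the 12, 9, 8 and 3 were still called without saline D100 replicate 1, 2 and 3, and 3, 7 and 11 without saline D27 replicate 1, 2 and 3.

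The 12 largest falls by the same rule were Marco, Mir145a, Gchfr, Gpr37l1, Cyp2d12, Fmod, Slc46a1, Abcg5, Angptl7, Brinp2, P4htm and Sfrp4. Marco, a scavenger receptor of macrophages, had 2 counts in all 3 saline D100 libraries and 193 in saline D27, 85.5 times as many per library depth (95% counting interval 23.4 to 711). Its saline D27 values were 1.84, 10.3 and 0.62 CPM, so most of its counts came from replicate 2, which also held the most RNA of the B cell list. In edgeR its log2 fold change was -6.27 (95% interval -9.61 to -2.93, adjusted p = 0.0425). Marco was not called with GC and length offsets (adjusted p = 0.0871) or without saline D27 replicate 2 (-4.49, adjusted p = 0.207). Cd209b, a lectin of macrophages outside the rule and chosen after its values were seen, had 0 counts in saline D100 and 163 in saline D27, at 1.67, 8.95 and 0.186 CPM. With the libraries of each group pooled and 3 counts in all taken as the floor, it was 48.1-fold lower in saline D100. The lower end of its 95% counting interval was 38.7-fold. That interval covers counting error only, and neither value covers library-to-library spread. Most of the counts came from saline D27 replicate 2, and replicate 3 was close to saline D100. The part of macrophage or B cell content in these values was not tested. Mir145a, counted here at the hairpin of a microRNA of smooth muscle, stood at 1.70, 1.28 and 1.43 CPM in saline D100, against 5.63, 5.58 and 3.41 CPM in saline D27 (-1.73 ± 0.297, adjusted p = 0.0114).

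Gchfr, the feedback regulator of tetrahydrobiopterin synthesis, stood at 1.55, 1.28 and 1.88 CPM in saline D100, against 4.96, 4.89 and 4.40 CPM in saline D27 (-1.59 ± 0.276, adjusted p = 0.0115). Cyp2d12, a cytochrome P450, stood at 27.7, 21.9 and 27.8 CPM in saline D100, against 81.4, 51.4 and 96.7 CPM in saline D27 (-1.57 ± 0.248, adjusted p = 0.0092). The rule required separate groups in both. Cyp2d12 was called in each of the 6 fits that left out 1 library, and reads of its near-identical family members may be shared with it. Slc46a1, the proton-coupled folate transporter, averaged 10.4 ± 3.70 CPM in saline D100 and 30.3 ± 9.29 CPM in saline D27 (-1.54, adjusted p = 0.0124), and Abcg5, which exports sterols from the enterocyte, 4.37 ± 2.27 and 12.6 ± 4.94 CPM (-1.53, adjusted p = 0.0413). Abcg5 fell to lower values in saline D100 than in saline D48, where it was at 20.2 to 28.5 CPM (-2.49, adjusted p = 0.00104; -2.70 and 0.0103 without saline D48 replicates 2 and 3).

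Gpr37l1, a receptor of glial cells, stood at 2.61, 2.24 and 1.58 CPM in saline D100, against 6.25, 5.65 and 7.50 CPM in saline D27 (-1.59 ± 0.253, adjusted p = 0.0092). Fmod, a proteoglycan that binds collagen, averaged 1.53 ± 0.478 CPM in saline D100 and 4.46 ± 0.798 CPM in saline D27 (-1.54, adjusted p = 0.0445), and Sfrp4, a secreted Wnt antagonist, 1.88 ± 0.761 and 5.10 ± 0.858 CPM (-1.43, adjusted p = 0.0318). Angptl7 averaged 9.19 ± 1.66 CPM in saline D100 and 26.1 ± 11.5 CPM in saline D27 (-1.50, adjusted p = 0.0315), Brinp2 3.35 ± 1.32 and 9.26 ± 1.70 CPM (-1.46, adjusted p = 0.0301), and P4htm, a prolyl hydroxylase, 1.17 ± 0.264 and 3.23 ± 0.377 CPM (-1.45, adjusted p = 0.0286). Of the 12 falls 6 were called with GC and length offsets, 8, 4 and 2 without saline D100 replicate 1, 2 and 3, and 3, 5 and 9 without saline D27 replicate 1, 2 and 3.

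Goblet cell genes gave no call. Of 18 genes of goblet cell mucus 0 were called in edgeR, 5 had an unadjusted p below 0.05, and the median log2 fold change was 0.27. Muc2, the gel-forming mucin, had 12438, 21293 and 22614 CPM in saline D100 and 12332, 15250 and 12974 CPM in saline D27 (0.47 ± 0.183, adjusted p = 0.159), with overlap through saline D100 replicate 1. Tff3, a trefoil peptide secreted with mucus, went the other way, at 201, 327 and 354 CPM in saline D100 and 588, 445 and 390 CPM in saline D27 (-0.69 ± 0.197, adjusted p = 0.0715). Of 17 enzymes that build the mucin sugars 5 rose (29.4%, against 1.63% of all genes) and 1 fell. Gcnt3, which branches the core sugar, averaged 86.2 ± 15.7 CPM in saline D100 and 57.2 ± 5.87 CPM in saline D27 (SD, n = 3 each; 0.59, adjusted p = 0.0282). Galnt4 and Galnt7, which start the chains, rose by 0.48 and 0.55 (adjusted p = 0.0282 and 0.0301), beside C1galt1c1 and Galnt3. With GC and length offsets 0 of these 5 were called, at log2 folds of 0.26 to 0.47. All 5 were also lost without saline D100 replicate 2 or 3 or saline D27 replicate 1 or 2, for Gcnt3 at adjusted p = 0.0619, 0.121, 0.0832 and 0.122 in that order. B4galnt3, a glycosyltransferase, fell to 83.5, 66.8 and 64.3 CPM in saline D100, against 131, 102 and 126 CPM in saline D27 (-0.74 ± 0.128, adjusted p = 0.0115), was called with the offsets (-0.61, adjusted p = 0.0459) and was lost without saline D100 replicate 3 (adjusted p = 0.0699) or saline D27 replicate 1 (0.0669).

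Of 20 genes of ion and water transport in colonocytes 1 rose and 2 fell, against 1.63% and 1.45% of all genes. Aqp4, a water channel, stood at 775, 686 and 830 CPM in saline D100, against 355, 426 and 422 CPM in saline D27 (0.93 ± 0.169, adjusted p = 0.0137). Car4, a carbonic anhydrase of the colonocyte surface, fell to 459, 416 and 437 CPM in saline D100, against 813, 1015 and 1076 CPM in saline D27 (-1.15 ± 0.27, adjusted p = 0.0341), and Scnn1b, a subunit of the epithelial sodium channel, to 3.67, 2.95 and 3.69 CPM, against 8.42, 6.40 and 7.44 CPM (-1.11 ± 0.252, adjusted p = 0.0301). All 3 genes separated the groups fully. With GC and length offsets none of the 3 was called (0.67, -1.08 and -0.98, adjusted p = 0.0854, 0.0942 and 0.0907). Aqp4 was also lost without saline D100 replicate 3 (adjusted p = 0.0715) or saline D27 replicate 1 (0.0756), Car4 in each of the 6 fits without 1 library (0.0639 to 0.12), and Scnn1b in all but that without saline D27 replicate 3 (0.067 to 0.114). Cftr, the chloride channel, was at 0.59 ± 0.173 (adjusted p = 0.0776).

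Of 20 genes of colonocyte differentiation 0 rose and 3 fell (15%, against 1.45% of all genes), with a median of -0.07. Saa1, an acute-phase protein made by colon epithelium, fell to 258, 219 and 331 CPM in saline D100, against 743, 513 and 731 CPM in saline D27 (-1.30 ± 0.256, adjusted p = 0.0185). Muc3, a membrane mucin of the colonocyte, fell to 4131, 4150 and 4412 CPM, against 6232, 5970 and 6046 CPM (-0.52 ± 0.132, adjusted p = 0.0434), and Phgr1 by 0.55 (adjusted p = 0.0358). Lypd8, which keeps bacteria off the colon lining, was the only one of 18 antimicrobial genes called (5.56%, against 1.45% of all genes lower). It was at 6306, 5973 and 6493 CPM in saline D100, against 9410, 8207 and 8332 CPM in saline D27 (-0.47 ± 0.0917, adjusted p = 0.0181). With the offsets these 4 calls ended, at -1.18, -0.52, -0.26 and -0.42 in the order named (adjusted p = 0.0691, 0.0831, 0.372 and 0.0605), and none of the 4 was called without saline D100 replicate 2 or 3 or saline D27 replicate 1, where Lypd8 had adjusted p = 0.0629, 0.0656 and 0.0829. Without saline D100 replicate 1 only Lypd8 of the 4 was called.

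Of 23 genes of xenobiotic metabolism 5 rose (21.7%, against 1.63% of all genes) and 0 fell, with a median of 0.14. Ces1g, a carboxylesterase, stood at 11.8, 6.86 and 7.98 CPM in saline D100, against 3.90, 3.65 and 3.72 CPM in saline D27 (1.24 ± 0.232, adjusted p = 0.0159) and was the one of the 5 called with the offsets (1.18, adjusted p = 0.0336). Cyp2c65 had 3.89, 22.1 and 20.1 CPM in saline D100, against 3.62, 4.20 and 3.04 CPM in saline D27 (2.08 ± 0.496, adjusted p = 0.0358), so saline D100 replicate 1 lay within saline D27. Fabp2, a fatty acid carrier of enterocytes, rose in the fatty acid oxidation and PPAR target list, whose median over 20 genes was 0.09. It stood at 45.5, 96.9 and 74.5 CPM in saline D100 and 23.4, 37.8 and 27.3 CPM in saline D27 (1.30 ± 0.252, adjusted p = 0.0171). Saline D100 replicate 1, the library with squamous transcripts, was the lowest of its group in Cyp2c65 and Fabp2, and the part of squamous tissue in these values was not tested. Of the 5 xenobiotic calls 2, 1 and 0 held without saline D100 replicate 1, 2 and 3, and 0, 0 and 2 without saline D27 replicate 1, 2 and 3. Fabp2 was not called with the offsets, nor without saline D100 replicate 2 or 3 or saline D27 replicate 1. Of 22 genes of fatty acid and cholesterol synthesis 0 rose and 2 fell (9.09%, against 1.45% of all genes), with a median of -0.27. These were Scd2, a fatty acid desaturase (-0.61 ± 0.14, adjusted p = 0.0314; -0.66 and 0.0412 with the offsets), and Dhcr7, of the last step of cholesterol synthesis (-0.51 ± 0.13, adjusted p = 0.0441; -0.43 and 0.0974 with the offsets). Neither was called without saline D100 replicate 2 or 3 or saline D27 replicate 1 or 2.

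Mitochondrially encoded genes were called in part. Of 10 tested 3 rose (30%, against 1.63% of all genes), mt-Co2, mt-Co3 and mt-Atp6, with mt-Co2 at 22.0, 23.97 and 20.4 CPM in saline D100, against 10.0, 10.5 and 13.5 CPM in saline D27 (0.96 ± 0.182, adjusted p = 0.0159). These counts are low and reads of nuclear copies may be shared. Of the abundant ones, mt-Nd4 had 1651, 1658 and 1635 CPM in saline D100 and 1121, 996 and 1657 CPM in saline D27, so that saline D27 replicate 3 stood at the saline D100 level (0.39 ± 0.158, adjusted p = 0.178). Of the 3 calls 1, 0 and 0 held without saline D100 replicate 1, 2 and 3, and 0, 0 and 3 without saline D27 replicate 1, 2 and 3. With GC and length offsets 1 of the 3 was called, and mt-Co3 (0.77, adjusted p = 0.0555) and mt-Atp6 (0.98, adjusted p = 0.124) were not. Another member of the list, 1 gene, was then called lower. The median of the list was 0.10, and -0.13 with the offsets.

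**Figure D4:**
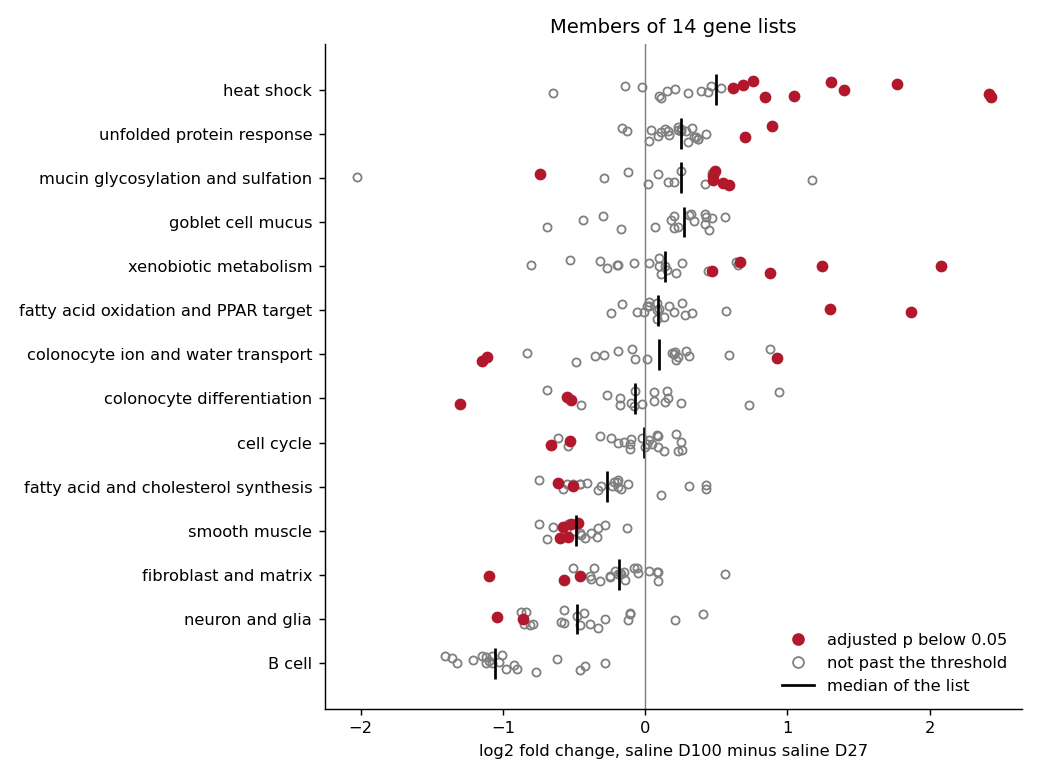
Log2 fold change (saline D100 minus saline D27) of the tested members of 14 gene lists, 1 point per gene, filled where the adjusted p is below 0.05, with a black line at the median of each list. Heat shock genes reach furthest to the right, with 10 filled points, and all members of the smooth muscle and B cell lists lie left of 0.

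Of 18 genes of the muscle coat 0 rose and 5 fell (27.8%, against 1.45% of all genes), all 18 fold changes were below 0, and the median was -0.48. In bulk RNA fewer muscle cells in the sample and less RNA per cell cannot be told apart. Acta2, smooth muscle actin, stood at 1239, 1154 and 913 CPM in saline D100, against 1445, 1589 and 1905 CPM in saline D27 (-0.58 ± 0.141, adjusted p = 0.0382). Des, desmin, stood at 1015, 1091 and 841 CPM in saline D100, against 1210, 1434 and 1626 CPM in saline D27 (-0.54 ± 0.125, adjusted p = 0.0329), and Smtn, smoothelin, at 243, 215.3 and 176 CPM, against 287, 337 and 340 CPM (-0.60 ± 0.14, adjusted p = 0.0321). The gaps between the groups were narrow. Summed over the list the libraries held 9046, 8229 and 6857 CPM in saline D100 and 9798, 10804 and 13076 CPM in saline D27, and 6654 to 7911 CPM in saline D48, against which 0 of the 18 were called. With GC and length offsets 0 of the 5 were called (median -0.39), and leaving out 1 library left 0 or 1 of them, 1 without saline D100 replicate 1. The CArG box, the site of serum response factor in muscle promoters (both strands), was found in the RefSeq windows of 1.61% of the 12534 genes, in 0 of the 5 called and in 1 of the 9 other members with a window, and these letters missing there say nothing of the factor.

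**Figure D5:**
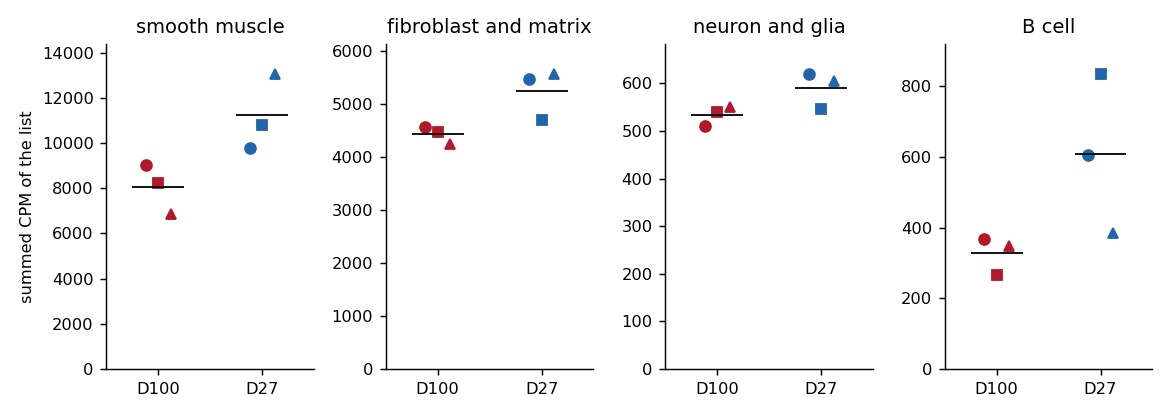
Summed CPM of the genes of 4 lists in the 3 saline D100 libraries (red, left) and the 3 saline D27 libraries (blue, right), with the mean as a line and a marker shape for each replicate. The smooth muscle sums run from 6857 to 9046 CPM in saline D100 and from 9798 to 13076 CPM in saline D27, and the B cell sum of saline D27 replicate 2 (blue square) is the highest at 837 CPM.

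Matrix genes fell in part. Of 24 genes of fibroblasts and matrix 0 rose and 3 fell (12.5%, against 1.45% of all genes), with a median of -0.18. Eln, elastin, stood at 60.0, 50.8 and 40.3 CPM in saline D100, against 105, 116 and 104 CPM in saline D27 (-1.10 ± 0.157, adjusted p = 0.00583). This was a 2.15-fold fall with fully separate groups, and it was called with the offsets (-0.92, adjusted p = 0.0138) and in all 6 fits that left out 1 library. Sparc, a matrix glycoprotein, averaged 216 ± 10.6 CPM in saline D100 and 322 ± 29.5 CPM in saline D27 (SD, n = 3 each; -0.57 ± 0.101, adjusted p = 0.0117), and Loxl1, which crosslinks elastin, 30.4 ± 0.759 and 41.9 ± 4.06 CPM (-0.46, adjusted p = 0.0271). Sparc was called with the offsets (-0.49, adjusted p = 0.04) and Loxl1 was not (-0.25, adjusted p = 0.239). Without saline D100 replicate 3 or saline D27 replicate 1, Sparc had adjusted p = 0.0715 and 0.0669. Col1a1, a collagen chain, was at -0.39 ± 0.106 (adjusted p = 0.0553). Among 21 genes of neurons and glia 2 fell (9.52%, against 1.45% of all genes), with a list median of -0.48. They were Uchl1, by 0.86, and Nefm, by 1.04 (adjusted p = 0.0438 and 0.0482). Neither held with the offsets (-0.64 and -0.88, adjusted p = 0.155 and 0.139), and of the 6 fits without 1 library, only that without saline D27 replicate 3 called either of them (Uchl1).

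Immune genes gave few calls. Of 20 B cell genes 0 were called in edgeR and 10 had an unadjusted p below 0.05, with all 20 below 0 and a median of -1.06. Their summed level was 367, 266 and 349 CPM in saline D100 and 605, 837 and 385 CPM in saline D27, so the groups did not overlap but saline D27 varied more than 2-fold. Cd79a, a part of the B cell receptor, had 25.7, 21.1 and 26.6 CPM in saline D100 and 55.8, 74.0 and 29.7 CPM in saline D27 (-1.12 ± 0.433, adjusted p = 0.16). T cell, cytotoxic lymphocyte, plasma cell, macrophage and dendritic cell, mast cell, MHC class II and interferon response genes also gave 0 calls, with medians of -0.24, -0.10, -0.02, 0.13, 0.55, -0.41 and 0.27 (1, 0, 1, 4, 2, 2 and 6 members with an unadjusted p below 0.05). Of 20 genes of neutrophils and acute inflammation 1 was called (5.0%, against 1.45% of all genes lower), Saa1, given above. Among chemokines Cx3cl1 fell by 0.58 (adjusted p = 0.0232), among antigen processing genes Tapbp by 0.35 (adjusted p = 0.0386), and Relb, a subunit of NF-kB, by 0.44 (adjusted p = 0.0209). None of these 3 was called with the offsets (-0.43, -0.18 and -0.20, adjusted p = 0.125, 0.34 and 0.375), or without saline D100 replicate 1 or 3 or saline D27 replicate 1.

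Proliferation and crypt genes were mostly uncalled. Of 24 cell cycle genes 0 rose and 2 fell (8.33%, against 1.45% of all genes), with a median of -0.01. Ccnd1, cyclin D1, stood at 52.0, 56.1 and 54.3 CPM in saline D100, against 76.3, 86.4 and 72.6 CPM in saline D27 (-0.53 ± 0.0854, adjusted p = 0.0092), the same with the offsets (-0.53, adjusted p = 0.0131) and lost only without saline D100 replicate 3 (adjusted p = 0.0539) among the 6 fits that left out 1 library. Mcm3, a replication licensing factor, averaged 36.6 ± 1.11 CPM in saline D100 and 57.7 ± 14.7 CPM in saline D27 (-0.66, adjusted p = 0.0496), with saline D27 replicate 2 highest, and was lost in every fit without 1 library other than saline D27 replicate 3 (adjusted p = 0.0957 to 0.223). Of 19 Wnt target and crypt stem cell genes 1 fell (5.26%, against 1.45% of all genes), Smoc2 (-0.57 ± 0.113, adjusted p = 0.0192). Of 17 genes of regenerating epithelium 1 fell (5.88%), Clu (-0.88 ± 0.218, adjusted p = 0.0402). Insl5, a hormone of colonic L cells, fell to 38.9, 46.6 and 42.4 CPM in saline D100, against 75.2, 74.7 and 77.5 CPM in saline D27 (-0.83 ± 0.161, adjusted p = 0.0171). Without saline D100 replicate 3 or saline D27 replicate 1 the adjusted p was 0.0709 and 0.0797 for Smoc2, 0.151 and 0.158 for Clu and 0.0737 and 0.07 for Insl5. With GC and length offsets Smoc2 (-0.52, adjusted p = 0.0389) and Insl5 (-0.78, adjusted p = 0.0494) were called, and Clu (-0.70, adjusted p = 0.131) and Mcm3 (-0.59, adjusted p = 0.11) were not. Apex1, which encodes the target of APX3330, was at 5.60 ± 1.02 CPM in saline D100 and 5.86 ± 1.37 CPM in saline D27 (-0.06 ± 0.283, 95% interval -0.66 to 0.54, adjusted p = 0.929).

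Transcription factors gave single calls. Among 18 circadian clock genes the median log2 fold change was 0.11. Nr1d1, a clock repressor of that list, had 97.4, 54.8 and 55.2 CPM in saline D100 and 26.4, 20.4 and 40.3 CPM in saline D27 (1.25 ± 0.368, adjusted p = 0.0776), and no time of day of sampling is given in the labels. Pparg, a nuclear receptor, stood at 45.3, 52.0 and 50.4 CPM in saline D100, against 31.4, 35.2 and 30.1 CPM in saline D27 (0.61 ± 0.105, adjusted p = 0.0114; 0.64 and 0.0131 with the offsets), and was lost without saline D100 replicate 3 (adjusted p = 0.0568) or saline D27 replicate 1 (0.0664). It was the only call of the adipocyte list, whose median was -0.48. Hoxa13 rose by 0.61 (adjusted p = 0.0245) and Hoxb13 fell by 0.58 (adjusted p = 0.0329) among 16 Hox and gut axis genes. That is 6.25% each way, against 1.63% and 1.45% of all genes. Only Hoxa13 was called with the offsets. Without saline D100 replicate 3 or saline D27 replicate 1 neither was called (adjusted p = 0.112 and 0.0829 for Hoxa13, 0.12 and 0.109 for Hoxb13). In the redox defence list 1 of 19 genes was called (5.26%, against 1.63% of all genes higher), Gclm, which rose by 0.38 (adjusted p = 0.0243). Among 20 immediate early genes 1 was called (5.0%, against 1.45% lower), Jund, which fell by 0.63 (adjusted p = 0.0369). Neither was called with the offsets (0.16 and -0.32, adjusted p = 0.335 and 0.36). Of the fits without 1 library, only that without saline D27 replicate 3 called Gclm (adjusted p = 0.0621 to 0.109 in the others). Jund was lost without saline D100 replicate 1 or 3 or saline D27 replicate 1 or 2 (adjusted p = 0.114 to 0.146).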

How the data were processed

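Total RNA from mouse colon was sequenced, and the deposited table of the authors gives raw counts, whole numbers for each gene, in 15 libraries. Per the labels' protocols RNeasy columns and SMARTER mRNA-Seq chemistry were used. GRCm38 and mm10 are the builds in the submitters' processing notes. What aligned and counted the reads, and whether by strand, is not given in the sources used here, so overlapping, antisense and near-identical genes are uncertain.

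The table holds 56859 genes, 23552 without a count in any library; edgeR's filterByExpr left 18038. All 15 libraries were fitted as 5 groups of 3 in R 4.3.3 with edgeR 4.0.16 (TMM, glmQLFit, glmQLFTest), and calls have a Benjamini-Hochberg adjusted p below 0.05 over all genes tested. CPM uses TMM factors, the SE is the log2 fold change divided by the root of the F statistic, and 1 fold change unit is a doubling (log2). With 3 against 3 libraries an exact permutation test cannot go below 0.1. Counting intervals (95%) cover counting error only. Floors (3 counts) cover only that of the group with 0 counts. On simulated counts with 200 changed genes of 18038, this comparison recovered 66% of changes of 1 and 98% of changes of 2 on the log2 scale, and 7 unchanged genes were called. The changed genes were not drawn from those of lowest counts. The simulated libraries had no trend with GC content and no squamous or pancreatic transcripts set apart in single libraries. These values therefore do not measure the error of the calls in the real libraries. Pairs of libraries within a group differed by more than counting noise.

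The comparison and the 45 gene lists were chosen with earlier results of these data known. Named genes are the 12 largest rises and 12 largest falls among called genes of at least 2 CPM without overlap and with a proper symbol (no predicted or clone names, no immune receptor segments), for each list up to 4 members of smallest p, the 5 most abundant genes and Apex1; further members of the heat shock and other lists are named as the calls counted there. Alternatives were DESeq2 size factors, no filter, the DESeq2 test (1.42.0), a block for replicate number, a fit of only the groups compared, limma-voom (limma 3.58.1) and each library left out. GC and length offsets (lowess per library, GENCODE M21 longest transcripts) the fit without saline D27 replicates 1 and 2, and that without saline D48 replicates 2 and 3 were added after seeing the data. Promoter windows are from RefSeq, and figures were drawn with matplotlib 3.10.9. Some called genes are not reported here.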

Additional observations from a re-analysis of the deposited data

How the results depend on the processing

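All 71 named genes that were called kept their direction under all 14 alternatives that gave them a value, and each lost its call under at least 1. The counts moved more. The 294 genes called higher and 262 lower in saline D100 against saline D27 became 531 and 655 with no filter on low counts, 710 and 561 with the DESeq2 test, 1137 and 757 with limma-voom and quality weights, 75 and 70 with GC and length offsets, and 161 called higher with only the 2 groups compared (195 lower). Leaving out 1 library gave 14 to 514 higher and 17 to 274 lower, the fewest without saline D100 replicate 3 and the most without saline D27 replicate 3, and the fit without saline D27 replicates 1 and 2 gave 0 and 0 in edgeR, with 1624 genes at an unadjusted p below 0.05; no other tool was run at that setting. The 10 heat shock calls became 2 to 9 with 1 library left out and 0 without saline D27 replicates 1 and 2. Against saline D48 the 1298 and 1155 calls became 662 and 602 with GC and length offsets and 705 to 935 and 625 to 1076 with 1 library left out, and 230 and 269 without saline D48 replicates 2 and 3. The 5 smooth muscle calls became 11 with no filter, 9 with the DESeq2 test, 8 with limma-voom, 3 with the replicate block, 2 with only the 2 groups compared, 0 with GC and length offsets, 0 to 1 with 1 library left out and 0 without saline D27 replicates 1 and 2. The cause of these shifts was not tested. The replicate numbers did not pair the libraries (correlations of same-numbered deviations 0.0167, 0.00749 and 0.00692), and with the replicate block 219 genes were called higher and 210 lower. With 2 counts in saline D100, the size of the fall of Marco is poorly known. Its counting interval of 23.4 to 711 leaves out library-to-library spread, and its edgeR interval was -9.61 to -2.93 (log2).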

Other observations

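Of the 556 called genes, 19 were called under every one of 13 alternatives, leaving aside only the fit with a single saline D27 library, in which none of the 19 was called. Of these 7 rose and 12 fell. They were chosen after their values were seen. Besides Dnaja1, Chordc1, Cyp2d12 and Eln they include Neat1, a long noncoding RNA of nuclear paraspeckles, at 714.5, 484 and 516 CPM in saline D100, against 1418, 1146 and 1333 CPM in saline D27 (log2 fold change -1.18 ± 0.171 SE, adjusted p = 0.00583 in edgeR; -1.38 to -1.08 under the 13 alternatives). Bak1, a pro-apoptotic protein of the mitochondrial membrane, stood at 38.8, 46.8 and 43.6 CPM in saline D100, against 75.3, 91.9 and 69.7 CPM in saline D27 (-0.87 ± 0.108, adjusted p = 0.00275). Mapk15 and Mapk13, kinases of the MAP kinase family, fell by 1.40 and 0.58 (adjusted p = 0.00275 and 0.0092). Dsc2, a desmosomal cadherin, stood at 241, 223 and 240 CPM in saline D100, against 146, 140 and 164 CPM in saline D27 (0.65 ± 0.0983, adjusted p = 0.00884), and Pgap1, which trims membrane anchors, at 41.7, 41.4 and 44.3 CPM, against 22.3, 24.2 and 22.4 CPM (0.89 ± 0.113, adjusted p = 0.00275). In all of these the groups did not overlap, as in 25.9% of all genes tested. Genes picked for calls in so many fits are likely to be separate, so this adds no support.

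Other members of the Cyp2d family, also chosen after their values were seen, were lower in saline D100 beside Cyp2d12. Cyp2d9 averaged 15.2 ± 2.05 CPM in saline D100 and 38.8 ± 5.02 CPM in saline D27 (-1.35, adjusted p = 0.0092), Cyp2d10 23.3 ± 2.11 and 49.1 ± 15.1 CPM (-1.08, adjusted p = 0.015), and Cyp2d22 24.9 ± 3.22 and 38.1 ± 2.50 CPM (-0.62, adjusted p = 0.0282; SD, n = 3 each). Reads of this family may be split between its members.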
